A study of Mus musculus with 12 samples.

Results

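The cytosolic ribosomal proteins were followed through 45 genes of 18193 measured genes. A member had a symbol made of Rpl or Rps, a number and at most 1 further letter, or was a stalk protein (Rplp0, Rplp1 or Rplp2), and needed a probe set naming that gene alone; the Rps6k kinases were left out. The rule used no measured change, and where a gene had several such probe sets the one with the highest mean over the 12 arrays stood for it. The 45 genes comprised 20 proteins of the large subunit, 19 of the small subunit, the stalk proteins Rplp0 and Rplp2, and 4 paralogs (Rpl3l, Rpl39l, Rps27l and Rps4l). A further 28 symbols of the rule, Rpl5, Rpl10 and Rplp1 among them, occurred only on probe sets shared with other genes and got no value of their own.

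RNA of sorted mouse CD8 T cells was hybridised to Affymetrix arrays, 1 per sample, in 3 groups. The PD-1+ Tim-3+ group (n = 4, also 2B4+, labelled exhausted) and the PD-1+ Tim-3- group (n = 3, also 2B4-, labelled stem-like) were tumour-infiltrating lymphocytes (TIL). They came from B16F10-GP melanomas grown in the right flank and taken between day 17 and day 19. The naive group (n = 5) held CD8 T cells of the spleen of naive mice. All mice were of the strain given as C57bl/c and 6 to 8 weeks old; no transgene or genetic deletion was named. The labels do not say whether replicates came from separate animals or pools, so p-values measure the spread between these samples, which may be technical. In bulk RNA, fewer cells of a type and less RNA per cell cannot be told apart.

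Each ribosome carries 1 copy of most of these proteins. The small subunit reads the mRNA, the large subunit joins amino acids, and the stalk recruits the elongation factors. Ribosomal protein mRNAs are abundant, and many begin with a run of pyrimidines, the 5′ terminal oligopyrimidine (TOP) tract. Through this tract mTOR signalling and the binding protein Larp1 control their translation. An array reads only the amount of mRNA. Some members act outside the ribosome too: in mammalian cells Rpl11, with Rpl5, holds back Mdm2, the ligase that degrades p53.

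The annotated start sites are shown because the tract lies there. In RefSeq (GRCm38.p6), 39 of the 45 members had a start window. Rpl8, Rps14 and Rps4l were among the 6 members without one and are not shown. A C followed by at least 4 pyrimidines, read on the gene's strand and beginning within 5 bases of the start, stood in 19 of the 39 members (48.7%), against 21.2% of 27025 genes. A match is a description of letters around an annotated start, which can lie some bases from the start used. The lines below give 15 bases on each side for the members the results turn on, 5′ to 3′, with the tract in capitals.
Rps27l, chr9:66946071-66946100, + strand: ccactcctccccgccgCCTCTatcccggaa
Rps27, chr3:90213634-90213663, - strand: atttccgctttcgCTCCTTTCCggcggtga
Rps6, chr4:86857353-86857382, - strand: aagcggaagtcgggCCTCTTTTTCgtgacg
Rps10, chr17:27635230-27635259, - strand: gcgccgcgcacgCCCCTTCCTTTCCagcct
Rpl39, chrX:37085208-37085237, - strand: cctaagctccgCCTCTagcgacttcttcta
Rplp2, chr7:141447636-141447665, + strand: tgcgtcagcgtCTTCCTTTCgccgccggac
Rpl39l, chr16:10170213-10170242, + strand: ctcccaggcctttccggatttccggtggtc
Rps25, chr9:44407699-44407728, + strand: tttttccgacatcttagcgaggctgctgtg
Rps7, chr12:28635939-28635968, - strand: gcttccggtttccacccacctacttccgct
Rps15, chr10:80292416-80292445, + strand: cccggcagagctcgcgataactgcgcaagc
Rps19, chr7:24884577-24884606, + strand: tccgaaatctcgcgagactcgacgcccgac

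Rps27l and its sequence relative Rps27 both held a tract at these starts, while the first annotated starts of Rpl39l, Rps25, Rps7, Rps15 and Rps19 held none of these letters in the window searched. Rps27l has a second annotated start (chr9:66946398-66946427) and Rps19 has 2 more, and none of those held a tract. The letters CCGGAAG, the core that ETS-family factors bind, were looked for on either strand from 250 bases before to 50 bases after the start, a motif chosen after the members' sequences were seen. They occurred in 19 of 39 members (48.7%), against 9.93% of the 27025 genes, and in windows of Rps27l, Rps6, Rps10, Rpl39, Rplp2, Rpl39l, Rps25 and Rps7.

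Values are log2 of the deposited intensities, and their medians lay between 58.8 and 63.0 intensity units on the 12 arrays. The sort markers followed the labels: Havcr2, which encodes Tim-3, averaged 11.66, 7.08 and 4.63 in Tim-3+, Tim-3- and naive cells, and Pdcd1, which encodes PD-1, averaged 11.77, 11.37 and 5.14. Cd8a averaged 12.85, 12.63 and 12.82. The arrays fell into 2 sets that the labels do not name and that an earlier look at these data had separated. Set A held Tim-3+ replicates 1 and 2, Tim-3- replicate 1 and naive replicates 1 and 2 (5 arrays), and set B held the other 7. Because the sets came from these values, part of the gap between them is built in. Adjusted p-values with the set as a block or within a set may therefore be too small. They are no separate support for a call. Between arrays of one group, the SD of log2 differences over all genes was 0.234 to 0.301 within a set and 0.337 to 0.412 across sets. Every comparison below was therefore also fitted with the set as a block and within each set; Tim-3- has a single array in set A, whose spread is taken from the other groups.

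Most ribosomal protein genes were bright. In 33 of the 45 members the mean over the 12 arrays exceeded log2 12, a range reached by 291 genes in all (1.60% of all genes). The highest value on any array was 14.17 to 14.26, and no flag of saturated spots was used here, so the part of a limit at the bright end in the small differences below was not tested. At the other end Rpl37, Rpl3l, Rps16 and Rps4l averaged below 5.71, the 40th percentile of genes, where a signal may lie at background. Members varied less between arrays of one group than genes as a whole, with SDs of their log2 differences of 0.117 to 0.169 within a set and 0.168 to 0.323 across sets.

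Between the TIL groups the ribosomal protein genes differed little. Of 45 members, 1 was higher in Tim-3+ relative to Tim-3- cells and 0 were lower (limma, Benjamini-Hochberg adjusted p below 0.05 over all genes; 2 members had an unadjusted p below 0.05), where 7.77% of all genes were higher and 5.77% lower. The member that rose was the paralog Rps27l. The median log2 difference of the members was -0.04, beside 0.01 over all genes. The 33 bright members had log2 differences of -0.09 to 0.19, and their 95% intervals reached from -0.30 to 0.66; those widest bounds came from the members that spread most, and the intervals do not show that the groups are alike. All 4 Tim-3+ arrays lay above all 3 Tim-3- arrays in 2 members, Rps27l and Rps4l (13.1% of all genes did so), and below them in 1, Rpl22 (9.57% of all genes). With the array set as a block, 1 member was higher and 0 lower, where 10.8% of all genes were higher and 7.61% lower.

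**Figure D1:**
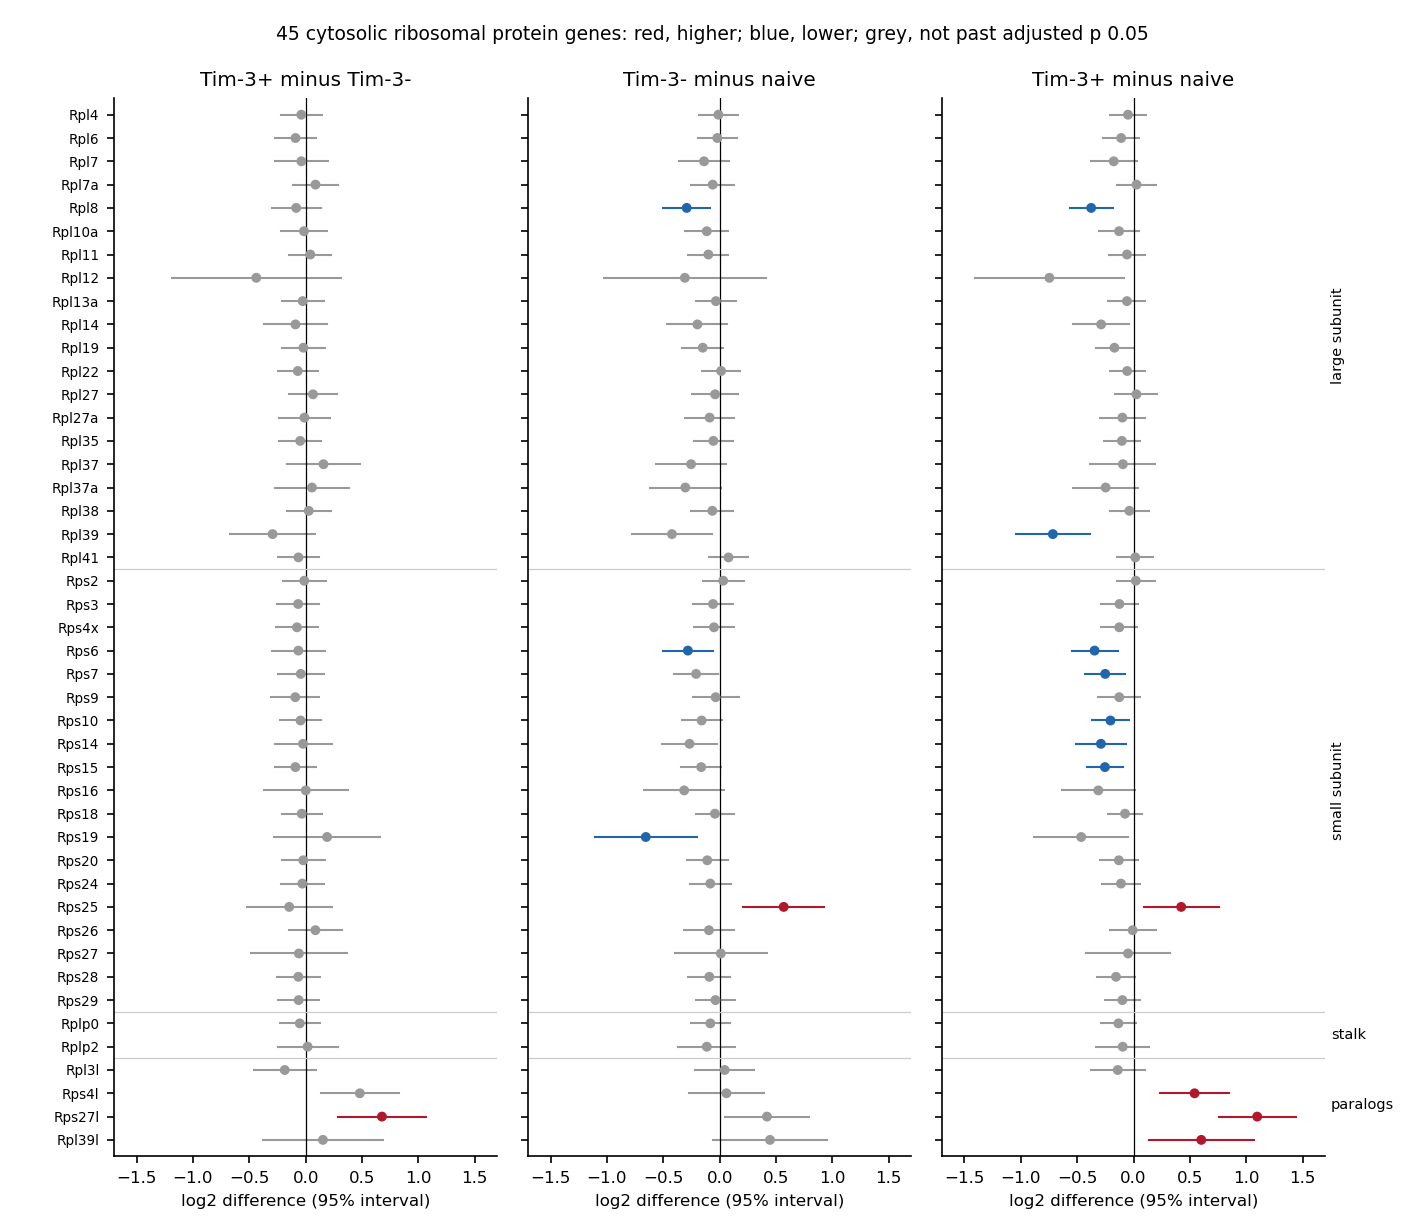
Log2 differences of the 45 ribosomal protein genes (points, with 95% intervals as bars) for Tim-3+ minus Tim-3-, Tim-3- minus naive and Tim-3+ minus naive. Red marks members that were higher and blue those that were lower at an adjusted p below 0.05; Rps27l alone is coloured in the left panel, 4 members in the middle panel and 11 in the right panel, and most other points sit close to 0.

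Rps27l encodes a near relative of Rps27, can take its place in the small subunit, and is a known p53 target gene in human and mouse cells. Its log2 intensities were 12.01, 11.96, 11.74 and 11.81 in Tim-3+ cells, 11.32, 10.95 and 11.33 in Tim-3- cells, and 11.19, 11.03, 10.73, 10.33 and 10.62 in naive cells. All Tim-3+ arrays lay above every other array, while the Tim-3- and naive arrays overlapped. Rps27l rose in Tim-3+ over Tim-3- cells by 0.68 ± 0.18 (log2, SE), 1.60-fold, with an adjusted p of 0.0224. It rose in Tim-3+ over naive cells by 1.10 ± 0.16, 2.14-fold, adjusted p = 5.84e-05. The difference between Tim-3- and naive cells was 0.42 ± 0.17 with an adjusted p of 0.0778, and with the array set as a block it was 0.44 with an adjusted p of 0.0126.

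The rise of Rps27l over naive cells passed in every alternative run, whereas that over Tim-3- cells did not. Its adjusted p was 0.0600 or 0.0556 when the first or the second Tim-3+ array was left out, and 0.117 when Tim-3- replicate 2 was. Within set A the difference from Tim-3- cells had a size of 0.66 with an adjusted p of 0.0477, and for set B alone it was 0.63 with an adjusted p of 0.0517. In a fit of every probe set, chosen after the data were seen, all 3 probe sets of Rps27l were higher in Tim-3+ relative to Tim-3- cells, by 0.68, 0.66 and 0.80, and higher than in naive cells by 1.10, 1.05 and 1.33. The dimmest of them also separated Tim-3- from naive cells, by 0.52 (adjusted p = 0.00687). Rps27 itself had no call in any comparison.

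**Figure D2:**
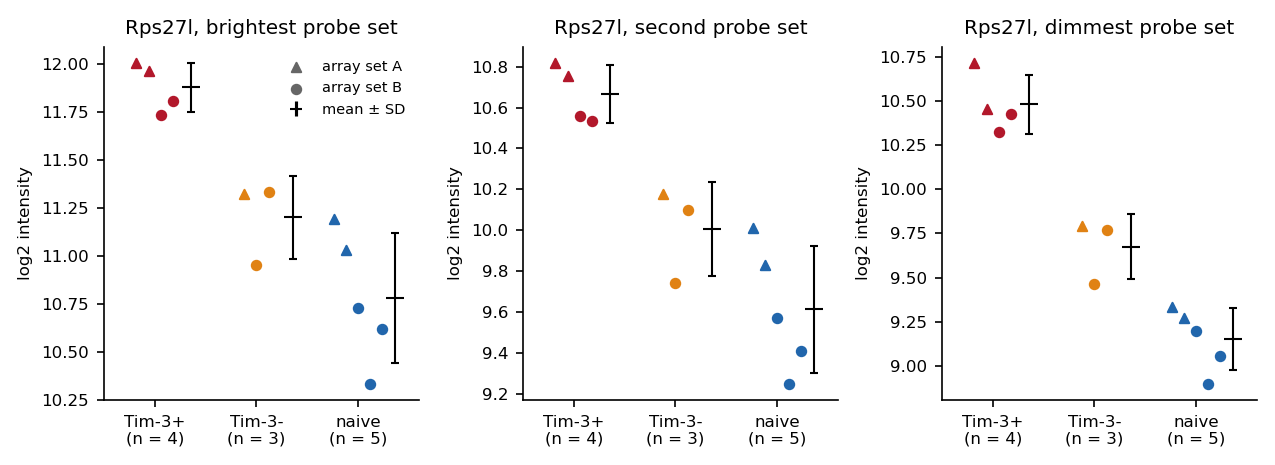
Log2 intensity of the 3 Rps27l probe sets in every array, by group, with the mean ± SD beside the points; triangles are arrays of set A and circles of set B. The 4 Tim-3+ points lie above all Tim-3- and naive points in each panel, and the vertical axes do not start at 0.

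Rps4l, a paralog of the small subunit protein Rps4x, was dim. It measured 5.83, 5.67, 5.48 and 5.43 in Tim-3+ cells, 5.35, 5.03 and 4.99 in Tim-3- cells, and 5.29, 4.85, 5.17, 4.72 and 5.27 in naive cells. The Tim-3+ arrays were the 4 highest of the 12. It was higher in Tim-3+ than in naive cells by 0.54 ± 0.14, adjusted p = 0.00635, and differed from Tim-3- cells by 0.48 ± 0.16 with an adjusted p of 0.0663. Within set B its difference from naive cells was 0.40 with an adjusted p of 0.0841.

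Few ribosomal protein genes passed the threshold between Tim-3- TIL and naive cells. Of the 45 members, 3 were lower (Rpl8, Rps19 and Rps6) and 1 was higher (Rps25), where 18.3% of all genes were lower and 16.1% higher. The median log2 difference was -0.08, beside -0.06 over all genes, and 36 of 45 members pointed below 0, where 58.4% of all genes did. In 11 members all Tim-3- arrays lay below all naive arrays (19.0% of all genes did so), and in 1 above (16.1%). With arrays centred on their median, 8 members were lower and 1 higher, where 24.0% of all genes were lower and 14.3% higher. The median SE of the 33 bright members was 0.085, and 0.050 when the 291 bright genes, chosen after the data were seen, were fitted alone. That fit had 7 of the 33 lower and 0 higher, with no share over the 291 genes given. With the array set as a block, 7 were lower and 3 higher (21.8% and 18.4% of all genes). The count of lower members was 0 when Tim-3- replicate 2, Tim-3- replicate 3 or naive replicate 1 was left out, 1 without naive replicate 2, and 6 without Tim-3- replicate 1.

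Tim-3+ TIL were set against the same naive arrays. Relative to these, 7 of 45 members were lower (Rpl39, Rpl8, Rps6, Rps14, Rps15, Rps7 and Rps10) and 4 were higher (Rps27l, Rpl39l, Rps4l and Rps25), where 21.4% of all genes were lower and 20.1% higher. The lower members were 2 of the 20 large subunit genes and 5 of the 19 small subunit genes; 3 of the 4 higher ones were paralogs. The median log2 difference was -0.11, beside -0.07 over all genes, and 37 of 45 pointed below 0, where 58.3% of all genes did. All Tim-3+ arrays lay below all naive arrays in 15 members (18.9% of all genes did so) and above them in 2 (18.4%).

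The split between lower and higher members moved with the scaling, with the array set as a block and with the genes fitted. With arrays centred on their median, 14 members were lower and 2 higher than in naive cells (27.2% and 18.2% of all genes), and after a second quantile normalization 10 were lower and 3 higher (24.4% and 18.6%). With the array set as a block, 14 were lower and 4 higher (25.3% and 22.6%). Among the 291 bright genes alone, a set chosen after the data were seen, 14 of 33 members were lower and 0 higher (19 had an unadjusted p below 0.05), where 24.7% of those genes were lower and 29.6% higher. Centring moved the medians of the members against naive cells to -0.18 for Tim-3+ and -0.16 for Tim-3- cells, and moved those of all genes with them, to -0.13 and -0.14. Leaving out Tim-3+ replicate 3 or 4 gave 4 lower members, and without Tim-3+ replicate 2, 2 were higher. Both TIL comparisons share the naive arrays, so the 2 members called lower in both, Rpl8 and Rps6, are given side by side only.

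A single value per array sums up the bright members. The median, over the 33 bright members, of each gene's deviation from its 12-array mean averaged -0.053 ± 0.062 in Tim-3+ cells, -0.032 ± 0.036 in Tim-3- cells and 0.062 ± 0.040 in naive cells (log2, SD). It ran from -0.115 to 0.0025 over the Tim-3+ arrays, from -0.056 to 0.0094 over the Tim-3- arrays and from 0.013 to 0.113 over the naive arrays. The naive arrays were thus the 5 highest of the 12. All genes leaned the same way by less: their median deviation ran from -0.050 to 0.0014 over the Tim-3+ arrays, from -0.037 to -0.014 over the Tim-3- arrays and from -0.013 to 0.064 over the naive arrays, where TIL and naive arrays overlapped. The array sets also differed: 29 of 45 members (64.4%) were higher in set A than in set B in all 3 groups, where 22.5% of all genes were, and 5 (11.1%) were higher in set B, where 21.0% of all genes were.

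**Figure D3:**
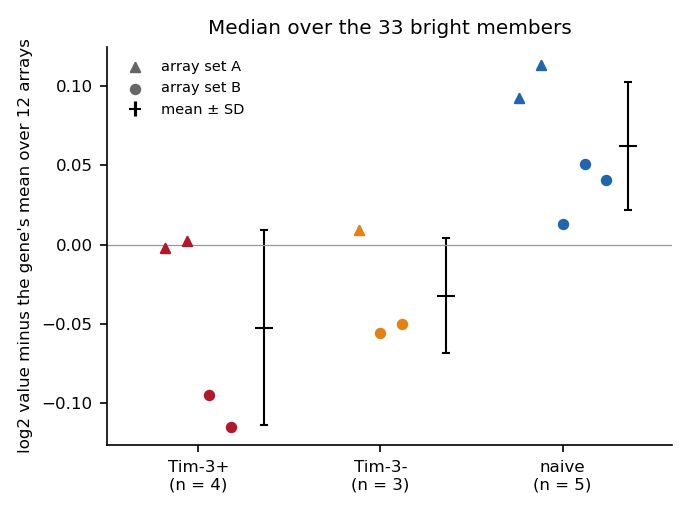
Median deviation of the 33 bright ribosomal protein genes from their 12-array means (log2), 1 point per array, by group, with the mean ± SD beside the points; triangles are arrays of set A and circles of set B. The naive arrays lie above the TIL arrays, and within each group set A lies above set B.

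In the large subunit Rpl8 and Rpl39 fell. Rpl8 lies close to the centre where peptide bonds form. It measured 12.52, 12.47, 12.29 and 12.27 in Tim-3+ cells, 12.51, 12.44 and 12.47 in Tim-3- cells, and 12.88, 12.86, 12.67, 12.72 and 12.69 in naive cells. No TIL array reached the lowest naive array. Rpl8 was lower than in naive cells by a log2 difference of -0.38 ± 0.09 in Tim-3+ cells (1.30-fold, adjusted p = 0.00315) and of -0.29 ± 0.10 in Tim-3- cells (1.22-fold, adjusted p = 0.0296). The Tim-3+ call passed in all 26 alternatives with a value, with differences of -0.37 and -0.41 within set A and set B. The Tim-3- call was lost in 6 of 26, namely in set A alone (-0.36, adjusted p = 0.103), in set B alone (-0.24, adjusted p = 0.0786), and without Tim-3- replicate 2, Tim-3- replicate 3, naive replicate 1 or naive replicate 2 (adjusted p = 0.0925, 0.0819, 0.0633 and 0.0618).

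Rpl39 lines the tunnel through which the new peptide leaves. It measured 7.31, 7.45, 7.24 and 6.80 in Tim-3+ cells, 7.71, 7.49 and 7.29 in Tim-3- cells, and 8.19, 7.68, 7.65, 8.07 and 8.01 in naive cells. The Tim-3+ arrays lay below all naive arrays, with the Tim-3- arrays between and overlapping both. Its difference from naive cells was -0.72 ± 0.15 in Tim-3+ cells, 1.64-fold, with an adjusted p of 0.00159, and -0.42 ± 0.17 in Tim-3- cells with an adjusted p of 0.0659. Within set A the Tim-3+ difference was -0.55 with an adjusted p of 0.0728.

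Its paralog Rpl39l, known in mouse mainly from the testis, went the other way. It measured 6.76, 6.65, 5.83 and 5.90 in Tim-3+ cells, 6.58, 6.06 and 5.76 in Tim-3- cells, and 5.88, 5.94, 5.41, 5.57 and 5.61 in naive cells. The groups overlapped, and in each group the arrays of set A were the highest. Rpl39l was higher in Tim-3+ than in naive cells by 0.60 ± 0.22, adjusted p = 0.0389. With the array set as a block the difference was 0.54 with an adjusted p of 0.000837. Set A alone gave 0.79, and set B alone gave 0.33 with an adjusted p of 0.0677. The call was also lost with centred arrays (adjusted p = 0.0660), without Tim-3+ replicate 1 or 2 (0.129 and 0.123) and without naive replicate 3, 4 or 5 (0.0868, 0.0744 and 0.0691). Against naive cells the Tim-3- difference was 0.45 ± 0.24, adjusted p = 0.170, and 0.49 with an adjusted p of 0.00396 with the set as a block.

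Rpl12, which sits at the base of the stalk, was picked after its values were seen because the sets split it. It measured 7.76, 8.35, 8.16 and 7.86 in Tim-3+ cells, 8.56, 8.60 and 8.26 in Tim-3- cells, and 7.88, 8.05, 9.52, 9.03 and 9.42 in naive cells. The naive arrays of set B alone were high. The Tim-3+ difference from naive cells was -0.75 ± 0.31 over all arrays with an adjusted p of 0.0659. Set A alone gave 0.09, and set B alone gave -1.31 with an adjusted p of 0.000552.

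In the small subunit Rps19 and Rps6 fell in Tim-3- cells, and Rps6, Rps15, Rps14, Rps7 and Rps10 fell in Tim-3+ cells. Rps19 is needed to mature the small subunit and is mutated in human Diamond-Blackfan anaemia. It measured 12.33, 12.35, 11.62 and 11.71 in Tim-3+ cells, 12.15, 11.59 and 11.70 in Tim-3- cells, and 12.79, 12.76, 12.30, 12.22 and 12.26 in naive cells. Set A stood above set B by 0.68, 0.50 and 0.52 in Tim-3+, Tim-3- and naive cells, so the Tim-3+ arrays overlapped the naive ones over all arrays and lay below them within each set. Rps19 was lower in Tim-3- than in naive cells by -0.66 ± 0.21 (log2), 1.57-fold, adjusted p = 0.0257. Omitting Tim-3- replicate 2 or 3 ended that call (adjusted p = 0.116 and 0.0939), as did omitting naive replicate 1 or 2 (0.0568 and 0.0580). The Tim-3+ difference was -0.46 ± 0.19 with an adjusted p of 0.0688. With the set as a block both passed, at -0.62 (adjusted p = 2.95e-05) in Tim-3- cells and -0.52 (adjusted p = 4.29e-05) in Tim-3+ cells, and the replicate numbers as a block also gave -0.52 in Tim-3+ cells (adjusted p = 0.00961).

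Rps6 is the substrate of the S6 kinases downstream of mTOR. It measured 10.29, 10.02, 10.22 and 10.06 in Tim-3+ cells, 10.37, 10.14 and 10.13 in Tim-3- cells, and 10.51, 10.65, 10.41, 10.47 and 10.43 in naive cells. All TIL arrays lay below the naive arrays. The difference from naive cells was -0.35 ± 0.09 in Tim-3+ cells (adjusted p = 0.00887) and -0.28 ± 0.10 in Tim-3- cells (adjusted p = 0.0492). The Tim-3- call passed in 9 of 26 alternatives. It was lost in 14, among them the replicate numbers as a block (-0.32, adjusted p = 0.0571), set A alone (-0.21, adjusted p = 0.417) and the omission of any 1 of 10 arrays, Tim-3+ replicate 1 and Tim-3- replicate 1 being the exceptions (adjusted p from 0.0504 to 0.177). The Tim-3+ call was lost within set A (-0.43, adjusted p = 0.0617). In the other 3 alternatives the sign turned in both groups, because a second, dimmer probe set of Rps6 rose instead, as described further on.

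Rps15, part of the head of the small subunit, measured 12.79, 12.83, 12.73 and 12.69 in Tim-3+ cells, 12.89, 12.82 and 12.84 in Tim-3- cells, and 13.02, 13.00, 13.02, 13.08 and 12.96 in naive cells. The 3 groups lay in that order, with a small overlap between the TIL groups. Its Tim-3+ difference from naive cells was -0.25 ± 0.08, adjusted p = 0.0140, and its Tim-3- difference -0.16 ± 0.08, adjusted p = 0.148. The Tim-3+ call was lost within set A (-0.20, adjusted p = 0.217) and with the dimmest probe set (-0.34, adjusted p = 0.0535).

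Rps14, whose loss of 1 copy marks a human myelodysplastic syndrome, measured 13.11, 13.10, 12.75 and 12.85 in Tim-3+ cells, 13.05, 12.84 and 13.04 in Tim-3- cells, and 13.36, 13.33, 13.16, 13.22 and 13.14 in naive cells. No TIL array reached a naive array. It differed from naive cells by -0.29 ± 0.10 in Tim-3+ cells (adjusted p = 0.0368) and by -0.27 ± 0.11 in Tim-3- cells (adjusted p = 0.0858, and 0.0255 with the set as a block). The Tim-3+ call was lost in 6 of 26 alternatives: within set A (-0.24, adjusted p = 0.144), without Tim-3+ replicate 3 or 4 (0.126 and 0.105) and without naive replicate 1, 2 or 4 (0.0800, 0.0771 and 0.0540).

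Rps7, which binds Mdm2 in human cells, measured 12.85, 12.88, 12.74 and 12.76 in Tim-3+ cells, 13.00, 12.78 and 12.77 in Tim-3- cells, and 13.10, 13.12, 13.05, 13.01 and 13.00 in naive cells. No TIL array reached the lowest naive array. Its Tim-3+ difference from naive cells was -0.25 ± 0.08, adjusted p = 0.0248. This call was lost in 6 of 26 alternatives: within set A (adjusted p = 0.135), with the dimmest or the most variable probe set (0.109 and 0.104), without Tim-3+ replicate 3 or 4 (0.0690 and 0.0689) and without naive replicate 2 (0.0530). Rps10, the seventh lower member and outside the rule for named genes, was picked after its values were seen; it differed by -0.21 ± 0.08 in Tim-3+ cells, adjusted p = 0.0432, and 0.0907 with the replicate numbers as a block. For set A alone that p was 0.204, and for set B alone 0.110. All 6 of its probe sets had a lower mean in Tim-3+ than in naive cells. In the fit of every probe set, 5 of the 6 passed the threshold.

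**Figure D4:**
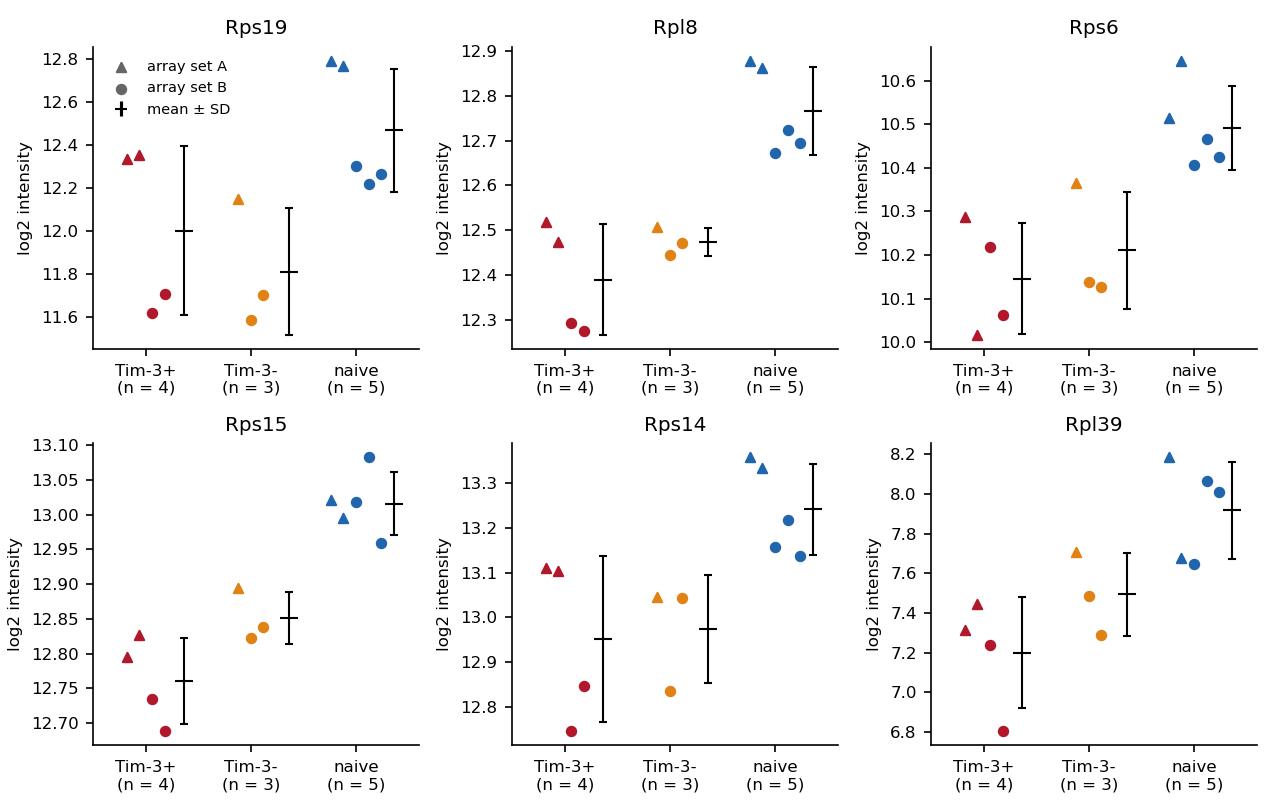
Log2 intensity of Rps19, Rpl8, Rps6, Rps15, Rps14 and Rpl39 in every array, by group, with the mean ± SD beside the points; triangles are arrays of set A and circles of set B. The naive points are the highest in each panel, except that naive arrays of set B overlap the Tim-3+ arrays of set A for Rps19 and 2 naive arrays overlap a Tim-3- array for Rpl39; the axes do not start at 0.

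Rps25 was the canonical small subunit gene that rose. The protein is needed for translation from several viral internal ribosome entry sites. It measured 9.59, 9.97, 10.004 and 10.04 in Tim-3+ cells, 10.07, 10.08 and 9.99 in Tim-3- cells, and 9.10, 9.14, 9.73, 9.74 and 9.68 in naive cells. The Tim-3- arrays lay above all naive arrays, and Tim-3+ replicate 1 fell below the naive arrays of set B. It was higher than in naive cells by 0.57 ± 0.17 in Tim-3- cells (1.48-fold, adjusted p = 0.0169) and by 0.42 ± 0.15 in Tim-3+ cells (1.34-fold, adjusted p = 0.0412). Both differences kept their sign within the sets, at 0.95 and 0.66 in set A and 0.32 and 0.31 in set B. Leaving out Tim-3- replicate 2 ended the Tim-3- call (adjusted p = 0.0543), and the Tim-3+ call ended in 10 of 26 alternatives.

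The stalk proteins Rplp0 and Rplp2, and Rpl11, Rpl13a, Rpl38 and Rpl3l, had no call in any comparison fitted without a block, centring or a filter. With arrays centred on their median, 1 of the 2 stalk genes was lower in Tim-3+ than in naive cells (27.2% of all genes were). The fit of bright genes only also had 1 of the 2 lower (24.7% of those genes were). Rplp0 averaged 13.20 ± 0.02 in Tim-3+ cells, 13.25 ± 0.07 in Tim-3- cells and 13.34 ± 0.02 in naive cells (SD). All TIL arrays lay below the naive arrays, yet the Tim-3+ difference of -0.13 ± 0.07 had an adjusted p of 0.163. Rplp2 averaged 13.79 ± 0.17, 13.77 ± 0.13 and 13.88 ± 0.15 in Tim-3+, Tim-3- and naive cells, and its Tim-3+ difference from naive cells had an interval of -0.33 to 0.14. Rpl11 differed between Tim-3+ and naive cells by -0.06 (interval -0.22 to 0.10), Rpl13a, which silences inflammatory mRNAs in human monocytes, by -0.06 (-0.22 to 0.10), and Rpl38, needed for Hox mRNA translation in mouse embryos, by -0.04 (-0.21 to 0.13). The Rpl13a value is of its brightest probe set. The next brightest read 12.15 to 12.49 in Tim-3+, 12.19 to 12.44 in Tim-3- and 12.46 to 12.80 in naive cells. In its dimmer probe sets the groups overlapped. Rpl3l, a paralog known from striated muscle, averaged 5.39, 5.58 and 5.53 in Tim-3+, Tim-3- and naive cells, all below the dim limit.

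Different probe sets of the same member disagreed in a few cases. Of the 45 members, 22 had several probe sets, and the chosen one was of the x type, whose probes can match other sequences, in 12. The second Rps6 probe set measured 6.12, 6.33, 6.56 and 5.96 in Tim-3+ cells, 6.70, 6.92 and 7.11 in Tim-3- cells, and 4.67, 5.47, 5.05, 5.75 and 4.58 in naive cells. All TIL arrays lay above the naive ones, and it was higher by 1.14 in Tim-3+ cells (adjusted p = 0.000882) and by 1.81 in Tim-3- cells (adjusted p = 5.41e-05), against the falls of the brighter probe set.

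Rps3 lines the mRNA entry channel and also takes part in NF-kappaB binding in T cells. Its bright probe set differed from naive cells by -0.13 in Tim-3+ cells (adjusted p = 0.243) and -0.06 in Tim-3- cells, while a second probe set was higher by 0.62 (adjusted p = 6.63e-05) and 0.68 (adjusted p = 8.85e-05). The second probe set read 10.02 to 10.15 in Tim-3+ cells, 10.12 to 10.23 in Tim-3- cells and 9.37 to 9.68 in naive cells, with no overlap between TIL and naive arrays.

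Rpl22, which is needed for alpha-beta T cell development in the mouse, had probe sets whose differences between the TIL groups shared a sign but not a size. Its 2 brighter probe sets differed between Tim-3+ and Tim-3- cells by -0.07 and -0.08 with no call. The dimmest measured 7.31, 7.66, 7.73 and 7.46 in Tim-3+ cells, 8.23, 8.24 and 8.09 in Tim-3- cells, and 8.27, 8.36, 8.52, 8.62 and 8.54 in naive cells. Tim-3+ arrays were the 4 lowest, and the difference was -0.65 from Tim-3- cells (adjusted p = 0.0042) and -0.92 from naive cells (adjusted p = 1.3e-05). The dimmest of 3 Rps9 probe sets likewise read lower in Tim-3+ cells, by -0.71 against Tim-3- cells (adjusted p = 0.04) and -0.91 against naive cells (adjusted p = 0.00104), while its brightest differed by -0.09 and -0.13. Which transcript each probe set reads was not tested.

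**Figure D5:**
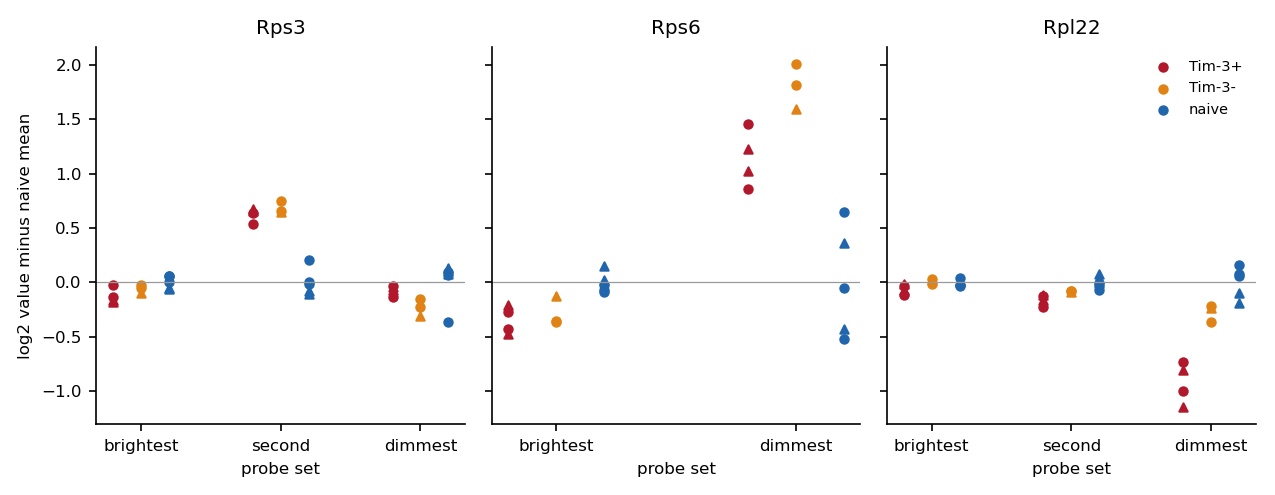
Log2 value of each array minus the mean of the naive arrays, for the probe sets of Rps3, Rps6 and Rpl22 from brightest to dimmest; colours are groups, triangles are arrays of set A and circles of set B. The second Rps3 probe set and the dimmest Rps6 probe set lie higher in both TIL groups than in naive cells, and the dimmest Rpl22 probe set lies lower in Tim-3+ cells.

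Over all probe sets that name a member alone, 98 in number, 3 were higher and 2 lower in Tim-3+ relative to Tim-3- cells (5.91% and 5.0% of 45037 probe sets). Against naive cells the Tim-3+ group had 8 higher and 16 lower (18.3% and 22.0%), and the Tim-3- group 4 higher and 7 lower (15.1% and 18.1%). The 110 probe sets that name a ribosomal protein among several genes had 0 calls between the TIL groups (1 had an unadjusted p below 0.05). Against naive cells the Tim-3+ group had 2 of them higher and 14 lower, and the Tim-3- group 3 higher and 6 lower.

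Other translation genes moved in both directions, and each count below stands against the share of all genes with that call. This was 20.1% higher and 21.4% lower in Tim-3+ against naive cells, 16.1% and 18.3% in Tim-3- against naive cells, and 7.77% and 5.77% in Tim-3+ against Tim-3- cells. Of 5 further ribosomal protein genes outside the naming pattern, Rpl7l1, a large subunit paralog, fell below naive cells by -0.53 in Tim-3+ cells (adjusted p = 0.00307) and -0.87 in Tim-3- cells (adjusted p = 0.000166), and the other 4 had no call. Its dimmest probe set read -0.13 (adjusted p = 0.576) and -0.35 (adjusted p = 0.174), and the mean of its probe sets lost the Tim-3+ call (-0.22, adjusted p = 0.151). Under the set block 3 of the 5 were lower in each TIL group than in naive cells. Of 9 elongation and termination genes, 1 rose and 3 fell in Tim-3+ against naive cells, 1 rose and 2 fell in Tim-3- against naive cells, and 2 rose and 0 fell in Tim-3+ against Tim-3- cells (limma; 2 of 9 at an unadjusted p below 0.05). The medians were -0.04, -0.09 and -0.05, and the mean between the TIL groups was 0.13, opposite in sign to the median. Eef2k, the kinase that inhibits elongation factor Eef2, averaged 8.86, 7.99 and 10.52 in Tim-3+, Tim-3- and naive cells; it fell by 1.66 (adjusted p = 2.93e-05) and 2.53 (adjusted p = 1.79e-06) on the log2 scale in the TIL groups. Etf1, the release factor, rose over naive cells by 1.03 in Tim-3+ cells and 1.15 in the Tim-3- group. Eef2k and Eef1e1, a synthetase-associated protein, were the 2 that rose in Tim-3+ over Tim-3- cells, and both calls ended in some alternatives. Eef2k passed in 15 of 26 alternatives, and its adjusted p was 0.435 within set A, 0.534 with its dimmest probe set and 0.0709 to 0.105 without Tim-3+ replicate 2, 3 or 4 or any 1 of the Tim-3- arrays. Eef1e1 rose by 0.59 (adjusted p = 0.0343) and passed in 18 of 26. Its adjusted p came to 0.0789 with set A alone and 0.0572 with set B alone, 0.0931 and 0.0922 without Tim-3+ replicate 1 or 2, and 0.144 and 0.133 without Tim-3- replicate 2 or 3. Eef1b2 differed by -0.27 between Tim-3+ and naive cells (adjusted p = 0.0154), and this p was 0.136 and 0.0628 in sets A and B taken alone and 0.0507 without Tim-3+ replicate 4.

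Of 31 initiation factor genes, 10 rose and 3 fell in Tim-3+ against naive cells, 5 rose and 1 fell in Tim-3- against naive cells, and 2 rose and 1 fell in Tim-3+ against Tim-3- cells. The shares over all genes were 20.1% and 21.4%, 16.1% and 18.3%, and 7.77% and 5.77%, so the Tim-3- rises against naive cells were at the share of all genes. The medians of the list were 0.08, 0.05 and 0.08 in that order. Under the set block 4 rose between the TIL groups (10.8% of all genes under that block) and 2 fell in Tim-3- against naive cells (21.8%). Eif4e, which binds the mRNA cap, was higher than in naive cells by 0.68 in Tim-3+ cells and 0.48 in the Tim-3- group. The Tim-3- call of Eif4e was lost within set A (0.13, adjusted p = 0.543) and without Tim-3- replicate 2 (0.40, adjusted p = 0.102) or 3 (0.33, adjusted p = 0.143). Eif1a, which helps the small subunit to scan, was higher by 0.65 and 0.62 in these groups, and the scaffold subunit Eif3b by 0.71 in Tim-3+ cells; with its dimmest probe set the Tim-3- difference of Eif1a was 0.36 (adjusted p = 0.0833). Eif1ax was higher by 0.67 and 0.35, but with only plain probe sets, those with no type suffix, the Tim-3+ difference was 0.0074 (adjusted p = 0.970) and the Tim-3- difference -0.18 (adjusted p = 0.343). Of 10 other mRNAs known for a 5′ TOP tract, 2 rose and 1 fell in Tim-3+ against naive cells, 1 rose in Tim-3- against naive cells, and 0 had a call between the TIL groups (limma; 3 at an unadjusted p below 0.05). The medians were 0.02, 0.06 and -0.02. Vim, the filament protein, rose by 0.65 and 0.56 in Tim-3+ and Tim-3- cells, Nap1l1, a histone chaperone, rose by 0.41 in Tim-3+ cells, and the host RNA Gas5 differed by -0.25 in Tim-3+ cells. The Gas5 call ended once the replicate numbers served as a block (adjusted p = 0.0518), in either set alone (0.160 in A and 0.0733 in B), with the mean of its probe sets (0.0973) and without Tim-3+ replicate 1 (0.0587), and the sign turned with its dimmest probe set (0.052).

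Of 26 genes of mTOR signalling and TOP control, 5 rose and 11 fell in Tim-3+ against naive cells, 3 rose and 8 fell in Tim-3- against naive cells, and 1 rose and 5 fell in Tim-3+ against Tim-3- cells. Over all genes 20.1% and 21.4%, 16.1% and 18.3%, and 7.77% and 5.77% did so. The set block gave 4 that rose and 12 that fell in Tim-3- against naive cells (18.4% and 21.8% of all genes under that block). Between the TIL groups it gave 3 that rose and 6 that fell (10.8% and 7.61%). The medians were -0.17, -0.24 and 0.03, and the mean between the TIL groups was -0.14, opposite in sign to the median. Sesn1, a sestrin that inhibits mTOR activity, averaged 7.86, 8.52 and 10.54 in Tim-3+, Tim-3- and naive cells, and its differences from naive cells were -2.68 and -2.02. It was also lower in Tim-3+ relative to Tim-3- cells, passing in 24 of 26 alternatives. That call was lost with its dimmest probe set (-0.42, adjusted p = 0.297) and within set A (-0.47). Sesn3 averaged 9.01, 10.80 and 10.39 in Tim-3+, Tim-3- and naive cells, and was lower in Tim-3+ relative to Tim-3- cells by -1.78 (adjusted p = 5.47e-07). Pdcd4, which blocks the initiation helicase, averaged 12.01, 12.46 and 12.71 and was lower in Tim-3+ relative to Tim-3- cells by -0.45 (adjusted p = 0.00527), and within set A and set B the adjusted p was 0.0510 and 0.0717. Rragd, a Rag GTPase, was lower in Tim-3+ relative to Tim-3- cells by -1.40 (adjusted p = 0.000814), and with its dimmest probe set by -0.30 with no call (adjusted p = 0.379). Larp1 had no call in any comparison.

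Of 13 genes for ribosomal protein chaperones and the p53 branch, 2 rose and 4 fell in each TIL group against naive cells, and 1 rose in Tim-3+ against Tim-3- cells. Over all genes 20.1% rose and 21.4% fell in Tim-3+ against naive cells, and 16.1% and 18.3% in Tim-3- against naive cells. Under the set block 5 fell in Tim-3+ and 6 in Tim-3- against naive cells (25.3% and 21.8% of all genes under that block). The medians were -0.15, -0.12 and -0.02 for Tim-3+ against naive, Tim-3- against naive and Tim-3+ against Tim-3- cells; the means of the first and last were 0.06 and 0.10, opposite in sign. The riser between the TIL groups was Cdkn1a, which halts the cell cycle. Cdkn1a averaged 9.07, 7.37 and 5.98 in Tim-3+, Tim-3- and naive cells, and rose by 1.71 (adjusted p = 7.32e-06) between the TIL groups and by 3.09 and 1.38 over naive cells. Mdm2 averaged 10.80, 10.56 and 10.61 with no call. Heatr3, which brings Rpl5 into the nucleus, rose over naive cells by 0.42 in Tim-3+ cells and 0.70 in the Tim-3- group, and without Tim-3+ replicate 3 the Tim-3+ difference was 0.36 (adjusted p = 0.0525). Pdcd2, a chaperone of Rps2 in human cells, differed by -0.49 and -0.54, and Tsr1, a small subunit assembly factor, by -0.58 and -0.49.

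Markers of other cells differed in part between tumour and spleen. Over all genes 20.1% were higher and 21.4% lower in Tim-3+ than in naive cells. The shares were 16.1% and 18.3% in Tim-3- against naive cells, and 7.77% and 5.77% in Tim-3+ against Tim-3- cells. Of 8 melanoma markers, 5 were higher and 1 lower in Tim-3+ than in naive cells, 2 higher and 1 lower in Tim-3- than in naive cells, and 0 differed between the TIL groups (limma; 1 at an unadjusted p below 0.05). Their summed intensity was 341 to 1280 in Tim-3+ arrays, 433 to 703 in Tim-3- arrays and 451 to 594 in naive arrays. The 6 B cell markers summed to 189 to 210, 248 to 251 and 581 to 772 in Tim-3+, Tim-3- and naive arrays. In each TIL group 2 were lower than in naive cells, and in Tim-3- cells 1 was higher. The 10 monocyte and macrophage markers summed to 399 to 507, 478 to 571 and 309 to 393, the 5 NK cell markers to 1260 to 1551, 1778 to 1952 and 462 to 596, the 5 CD4 and regulatory T cell markers to 1465 to 1926, 1331 to 1467 and 626 to 698, and the 8 fibroblast and endothelium markers to 365 to 443, 573 to 595 and 1048 to 1320. No marker is listed at 0, and the part of these cells in the differences of ribosomal protein genes from naive cells was not tested.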

How the data were processed

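RNA of sorted CD8 T cells was measured on 12 Affymetrix arrays. The deposited values are intensities on a linear scale, made with RMA from the affy package per the submitters' processing notes; log2 was taken with no pseudocount. RMA gives all arrays a like distribution, so a level is relative to the rest of its array. Of 45101 probe sets, 64 controls were left out; of the others 34945 named 1 gene, 932 several and 9160 none. For each of 18193 genes the probe set with the highest mean was fitted with limma 3.58.1 (R 4.3.3; lmFit, eBayes) over all 3 groups, with two-sided p-values adjusted by Benjamini-Hochberg over all genes and a threshold of 0.05. The method was tested on simulated data. For arrays, their number (4, 3 and 5) limits the precision.

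Members and lists were chosen with earlier results of these data known. Members named with values were those past the threshold between the TIL groups, the 6 largest rises and falls of each TIL group against naive cells, fixed members, and those with probe sets of opposite sign; of other lists, up to 4 genes of smallest adjusted p. Of 105 list genes, 94 were measured, and 49 of 52 markers. Same-numbered Tim-3+ and naive arrays deviated together (r = 0.32, 0.19, 0.21 and 0.13 over genes), each pair lying in 1 array set. The other same-numbered pairs gave 0.41, -0.13 and 0.27 for Tim-3+ with Tim-3-, and 0.23, -0.15 and 0.14 for Tim-3- with naive. The pairs at -0.13 and -0.15 lay across the array sets and the others within 1 set. For Tim-3+ with naive arrays, pairing and array set therefore cannot be told apart. Arrays of different number and different group were not correlated. Alternatives covered the probe set choice, filters, scaling, weights, trend, blocks, thresholds and each array left out.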

Additional observations from a re-analysis of the deposited data

Results flagged for a closer look

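Of 40 groups of 4 or 5 arrays examined over the named members, 2 held an array far from the rest, at a test that chance passes in about 5% of groups. Naive replicate 5 was the lowest for Rpl3l at 5.15, with the next naive array at 5.60. Tim-3+ replicate 1 was the lowest for Rps25 at 9.59, with the next Tim-3+ array at 9.97.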

How the results depend on the processing

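The directions of the members' medians held in every alternative run, and the counts of calls moved with many of them. Plain probe sets covered 24 members and bright genes only covered 33. Where a share over all genes was given, it stands above. The other counts below have none and show only how the calls moved. Between Tim-3+ and Tim-3- cells, 2 members were higher with array weights and 2 with the replicate numbers as a block, and 0 with only plain probe sets, bright genes only, within set B, at a minimum of 2-fold or at an adjusted p below 0.01. Members lower there numbered 2 with the dimmest or the most variable probe set, 1 with the mean of probe sets and 1 with only plain probe sets. Leaving out each array gave 0 to 2 higher, 0 to 0 lower and a median of -0.05 to -0.01.

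Between Tim-3- and naive cells, members higher numbered 3 with the dimmest probe set, the mean of probe sets, the array set block or within set B, 4 with the most variable probe set, 2 with plain probe sets, weights or within set A, and 0 with bright genes only, at 2-fold or at 0.01. Members lower numbered 1 with plain probe sets, 8 with centred arrays or with a trend and robust fit, 7 with the set block, 6 with weights, 5 within set B, and 0 at 2-fold or at 0.01. With bright genes only, 7 of 33 were lower. Leaving out each array gave 1 to 2 higher, 0 to 6 lower and a median of -0.11 to -0.06. Centring moved the median to -0.16 and that of all genes to -0.14.

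Between Tim-3+ and naive cells, members higher numbered 2 with centred arrays, within set B or at 0.01, 1 at 2-fold and 0 with bright genes only. Members lower numbered 14 with centred arrays, a trend and robust fit or the set block, 2 within set A, 0 at 2-fold and 3 at 0.01. With bright genes only, 14 of 33 were lower. Leaving out each array gave 2 to 4 higher, 4 to 7 lower and a median of -0.13 to -0.10. Centring moved the median to -0.18 and that of all genes to -0.13. The replicate block changed the calls of Rps10, Rps19 and Gas5 given above and those of the list genes Fau, Eef1d, Eif2b4, Sesn2, Sox10 and Mitf. The labels pair no samples in any comparison. In the other comparisons the replicate block moved Rps4l to 0.56 (adjusted p = 0.0105) in Tim-3+ against Tim-3- cells. It gave 4 lower members in Tim-3- against naive cells.

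Reversals came from the probe set chosen. Rps6 read 1.81 with the dimmest or most variable probe set and 0.76 with the mean in Tim-3- against naive cells, and 1.14 and 0.40 in Tim-3+ against naive cells. Eif1ax read -0.18 with a plain probe set and Sesn3 -0.032 with its dimmest in Tim-3- against naive cells, and Gas5 0.052 in Tim-3+ against naive cells. The cause was not tested. Dim members near background and bright members near the top of the scale limit what these arrays can show.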
